A study of Homo sapiens with 2 samples.

Results

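The galectins and the galectin-binding glycoprotein LGALS3BP were examined in Huh-7 cells, a human hepatoma line, with and without interferon-alpha. The set was every probe set annotated to only 1 of the genes LGALS1, LGALS2, LGALS3, LGALS4, LGALS8, LGALS9 and LGALS3BP. This gave 7 genes of the 19775 with a probe set of their own, read by 13 probe sets. In 1 culture the medium was replaced by medium with recombinant human interferon-alpha 2b, at 100 U/mL, and the exposure lasted 6 hours. In the other culture, called untreated, the medium was only exchanged, and its time of harvest is not given in the sources used. Both were grown in the same serum-containing medium. Each condition was measured on 1 Affymetrix expression array, so no difference below has a replicate behind it, none could be tested and there are no p-values.

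Galectins are lectins that bind beta-galactoside sugars. They are made in the cytosol, leave the cell without a signal peptide, and outside it cross-link glycoproteins of the surface and matrix. Inside the cell, some of them bind glycans exposed on damaged endosomes and lysosomes. Galectin-1 and galectin-2 have a single carbohydrate-binding domain, galectin-3 joins its domain to a long proline- and glycine-rich tail, and galectin-4, galectin-8 and galectin-9 carry a pair of domains on 1 chain. LGALS3BP is not a galectin. It is a heavily glycosylated protein with a scavenger receptor cysteine-rich domain, released through the classical secretory pathway, that binds galectin-3 and matrix proteins.

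LGALS3BP was the only one of the 7 genes that differed by 2-fold or more between the arrays, and it was higher with interferon. Galectin-3 was by far the brightest of the set on both arrays and was nearly level. Galectin-8 and galectin-2 came next in brightness and were nearly level. Galectin-9 and galectin-1 were dimmer than these and somewhat lower with interferon, and galectin-4 was not above the floor on either array. A floor at an intensity of 48.46, which is the 50th percentile over both arrays, was used, and lower values were raised to it before a ratio was taken.

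The stretches around the annotated gene starts of LGALS3BP, galectin-9 and galectin-3 are shown. The first of these genes was more than 2-fold higher with interferon and the others did not reach that size. LGALS2, LGALS4 and LGALS8 did not pass 2-fold either and are not shown. Those shown include every member in which the sequence searched for was found. Each stretch holds the 250 bases before the start and 50 bases from the start on. It runs 5′ to 3′ on the strand of the gene, from RefSeq on GRCh38.p14. Capitals mark a match to the core of the interferon-stimulated response element, a DNA sequence found near the starts of many genes that type I interferon induces. The core was searched as GAAA, any 2 bases and GAAA again, and for the opposite strand as TTTC, any 2 bases and TTTC. LGALS3BP lies at chr17:78979874-78980173 on the minus strand, LGALS9 at chr17:27630938-27631237 on the plus strand and LGALS3 at chr14:55129002-55129301 on the plus strand.
LGALS3BP: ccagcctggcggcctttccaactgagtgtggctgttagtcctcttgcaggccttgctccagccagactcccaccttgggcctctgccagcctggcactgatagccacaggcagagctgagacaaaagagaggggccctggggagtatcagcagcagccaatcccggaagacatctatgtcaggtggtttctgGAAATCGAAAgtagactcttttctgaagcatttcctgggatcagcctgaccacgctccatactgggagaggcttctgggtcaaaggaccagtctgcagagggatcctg
LGALS9: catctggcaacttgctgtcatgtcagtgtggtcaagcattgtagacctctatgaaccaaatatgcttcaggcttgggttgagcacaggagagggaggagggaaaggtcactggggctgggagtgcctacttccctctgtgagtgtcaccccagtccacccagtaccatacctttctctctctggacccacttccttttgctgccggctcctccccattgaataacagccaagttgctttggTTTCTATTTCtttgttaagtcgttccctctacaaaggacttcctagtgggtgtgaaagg
LGALS3: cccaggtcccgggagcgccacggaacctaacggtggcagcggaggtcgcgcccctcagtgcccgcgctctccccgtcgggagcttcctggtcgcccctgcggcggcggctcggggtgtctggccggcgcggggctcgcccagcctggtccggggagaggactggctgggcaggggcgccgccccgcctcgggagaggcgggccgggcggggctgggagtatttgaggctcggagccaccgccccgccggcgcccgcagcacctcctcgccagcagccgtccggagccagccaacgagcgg

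The LGALS3BP stretch held the core once, as GAAATCGAAA on the strand of the gene, from 58 to 49 bases before the start. The LGALS9 stretch held it once on the opposite strand, read above as TTTCTATTTC, starting 9 bases before the gene start and ending on its first base. LGALS3 had no match. Of the 7 genes 6 had an entry, with 8 stretches in all because LGALS8 had several starts, and only LGALS3BP and LGALS9 had a match. LGALS1 had no entry in the table. Among all 35116 stretches of this length, 3.57% held the core on either strand. Among the genes at least 2-fold higher with interferon, 30 of the 48 with an entry held it (62.5%), compared with 389 of the 10683 counted genes with an entry (3.64%). A gamma-activated site core, searched as TTC, any 3 bases and GAA, which reads the same on both strands, occurred in 0 of the 6 genes. It was present in 15 of the 48 genes at least 2-fold higher (31.2%), in 8.45% of the counted genes with an entry and in 7.66% of all stretches. With no match in the 6 genes, the capitals above involve no overlap between motifs. A match is a description of the letters and not evidence of binding.

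The LGALS3BP probe set had an intensity of 98.7 on the interferon array and 38.08 on the untreated array. The untreated value was below the floor, at 0.79 times it, and the interferon value was 2.04 times the floor. LGALS3BP was therefore at least 2.04-fold higher with interferon, a log2 ratio of at least 1.03, which lies just inside the 2-fold threshold. Without a floor, the measured values differed 2.59-fold, or 1.37 on the log2 scale. The probe set was brighter than 66.2% of all probe sets on the interferon array and than 43.9% on the untreated array. In a bulk sample, more transcript per cell and more expressing cells cannot be told apart.

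Of the 6 genes counted, meaning above the floor on at least 1 array, LGALS3BP alone passed 2-fold upward and 0 passed it downward. Over all 13269 counted genes, 57 (0.43%) passed 2-fold upward and 0 (0.0%) downward. When the arrays were instead centred on the hybridisation controls, 44 genes passed upward and 5 downward, and LGALS3BP then had a bound of 0.60 on the log2 scale, under 2-fold. By its bound LGALS3BP was the lowest of the 57 genes, and by its measured ratio it ranked 52nd among the counted genes, of which 64 had a measured ratio of at least 2-fold. LGALS3BP was 1 of 159 genes that were below the floor untreated and above it with interferon, and 16 of those 159 (10.1%) reached a 2-fold bound.

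Dim probe sets vary more between arrays, so LGALS3BP was also set against others of its brightness. Of the 4470 probe sets within 0.25 of it in mean log2 intensity, itself included, the central 95% of measured log2 ratios lay between -0.40 and 0.42. Its 1.37 was at the 99.80th percentile of them. At least 2-fold higher were 16 of the 4470 (0.358%). This describes the 2 arrays and is not a replicate error. LGALS3BP had 1 probe set, so no other reading of the gene was available for comparison.

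**Figure D1:**
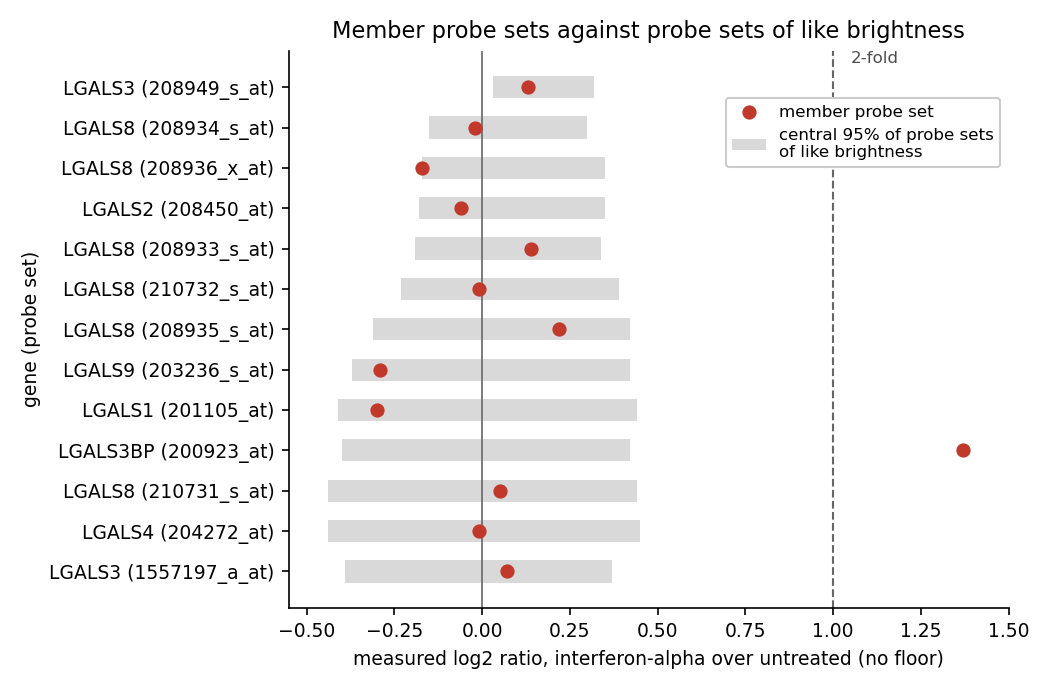
Measured log2 ratios, interferon-alpha over untreated and without a floor, of the 13 probe sets of the 7 genes (points), with the central 95% of probe sets within 0.25 of each in mean log2 intensity (grey bars) and 1 array per condition. The LGALS3BP point at 1.37 lies beyond its bar, which ends at 0.42, and the other points lie within their bars or, for the LGALS8 probe set at -0.17, at the end of one.

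Galectin-3, the partner after which LGALS3BP is named, had intensities of 3285 with interferon and 2998 untreated on its brighter probe set. These values exceeded 98.7% of all probe sets on each array. The log2 ratio was 0.13, within the -0.29 to 0.30 that held the central 95% of the 12742 genes that exceeded the floor on each array, and its sign changed after quantile scaling (-0.05), lowess scaling (-0.02) and centring on the hybridisation controls (-0.30). Bright probe sets were in general slightly higher on the interferon array. For the 339 of like brightness the central 95% ran from 0.03 to 0.32, and galectin-3 stood at the 31.27th percentile of them. The second galectin-3 probe set had 15.08 with interferon and 14.39 untreated, below the floor on both arrays, so the gene's reading rests on 1 of its 2 probe sets.

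Galectin-8, a tandem-repeat galectin that marks damaged vesicles and recruits the autophagy receptor CALCOCO2, was the best covered member, with 6 probe sets. Its brightest had 407.7 with interferon and 413.5 untreated, a log2 ratio of -0.02. The next had 281.3 with interferon and 316.4 untreated, followed by sets with 278.2 with interferon and 252.0 untreated, 197.5 with interferon and 199.6 untreated, and 130.2 with interferon and 111.9 untreated. The last stayed under the floor with 39.0 on the interferon array and 37.55 on the untreated array. The 5 probe sets above the floor had log2 ratios from -0.17 to 0.22, with 2 above 0 and 3 below, and the readings of the gene did not go 1 way. The range between them, 0.39, is the measure available here of how far probe sets of a single galectin differ. In level, the brightest and the dimmest of these 5 differed 3.13-fold on the interferon array and 3.70-fold on the untreated array, although they read the same gene.

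Galectin-2, a member best known from the gastrointestinal tract, had 285.1 with interferon and 296.8 untreated, a log2 ratio of -0.06. It was brighter than 82.7% of probe sets on the interferon array and 83.7% on the untreated array. Galectin-4, another galectin of the digestive tract, had 33.84 with interferon and 34.19 untreated. Both values were below the floor, and no ratio was taken.

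Galectin-9, a ligand of the immune receptor HAVCR2 that interferons are known to induce in several cell types, had 71.82 with interferon and 88.05 untreated. The log2 ratio was -0.29, a value 1.23-fold lower with interferon. Probe sets of like brightness ran from -0.37 to 0.42 in their central 95%, and galectin-9 was at the 6.12th percentile. Galectin-9 thus carried the response element core near its start, as LGALS3BP did, and read on the other side of 0. Centring on the hybridisation controls moved it to -0.72, past 1.5-fold.

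Galectin-1, a single-domain galectin of many tissues, was dim in this line, with 47.47 on the interferon array, just below the floor, and 58.27 on the untreated array. It was at least 1.20-fold lower with interferon, a log2 bound of -0.27, and its measured log2 ratio of -0.30 lay within the -0.41 to 0.44 of probe sets of like brightness. At the lower threshold of 1.5-fold, 1 of the 6 counted genes was higher, LGALS3BP again, and 0 were lower. Over all counted genes 0.754% passed 1.5-fold upward and 0.0829% downward. The 6 had a median log2 ratio of -0.04, beside 0.03 over all counted genes.

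**Figure D2:**
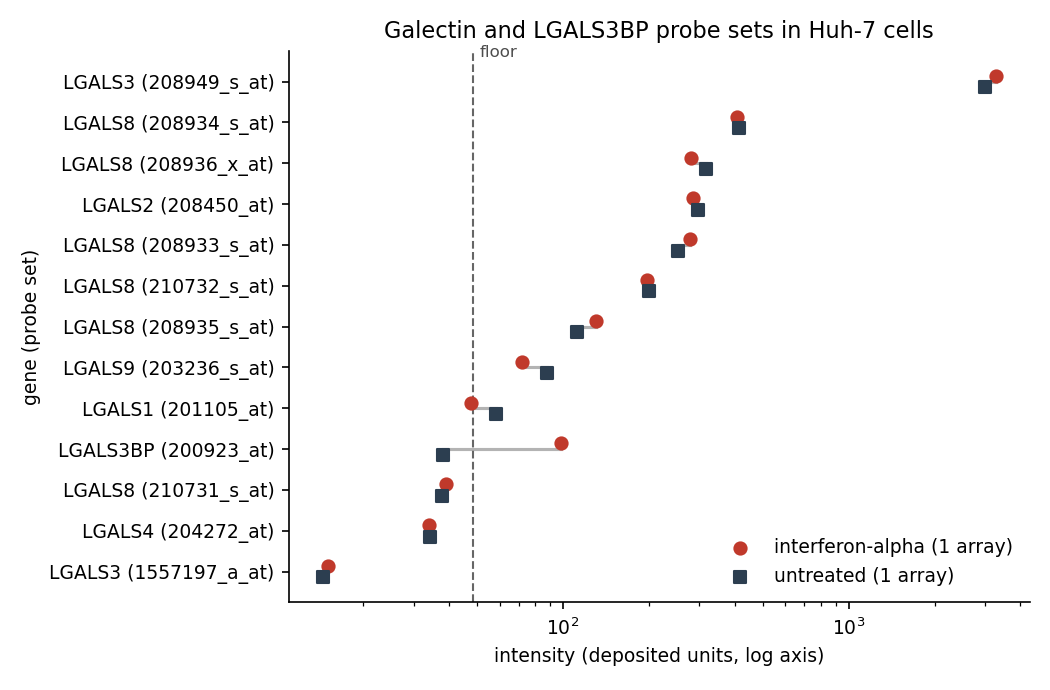
Intensities on a log axis for the 13 probe sets, sorted by the untreated value, on the interferon-alpha array (circles) and the untreated array (squares), with the floor of 48.46 dashed. LGALS3 spans 3285 and 2998 at the top, and LGALS3BP is the only probe set that lies above the floor with interferon (98.7) and below it untreated (38.08).

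By untreated intensity of the probe set used for each gene, the order of those above the floor was LGALS3, LGALS8, LGALS2, LGALS9 and LGALS1, with LGALS3BP and LGALS4 below the floor and in no order. Galectin-3 exceeded the next, galectin-8, 8.06-fold on the interferon array and 7.25-fold on the untreated array. The counted galectin-8 probe sets differed by less, 3.13-fold and 3.70-fold on these arrays. That spread leaves out sets below the floor, and with them probe sets of a single gene differed by more than the galectin-3 lead. The dimmest galectin-8 set had 39.0 with interferon and 37.55 untreated. The second galectin-3 set had 15.08 with interferon and 14.39 untreated, beside 3285 and 2998 on the set used. On the untreated array galectin-8 exceeded galectin-2 1.39-fold, galectin-2 exceeded galectin-9 3.37-fold and galectin-9 exceeded galectin-1 1.51-fold. None of these 3 steps was larger than the 3.70-fold between the galectin-8 probe sets. On the interferon array the order was LGALS3, LGALS8, LGALS2, LGALS3BP and LGALS9, with LGALS1 and LGALS4 below the floor. The steps there after the first, 1.43-fold, 2.89-fold and 1.37-fold, were also within the 3.13-fold between galectin-8 probe sets. Probe sets bind their targets with different strength and the values are not per length, so the order is one of brightness and not of transcript amount.

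The other galectin genes showed nothing past 1.5-fold. Of 11 further family members listed, 5 had a probe set of their own, and LGALS12, LGALS13, LGALS14 and the eosinophil lectin CLC were below the floor on both arrays, between 17.05 and 27.01 with interferon and between 17.91 and 31.21 untreated. The counted one was LGALSL, a galectin-related protein, with 334.4 with interferon, 329.5 untreated and a log2 ratio of 0.02. Its second probe set had the same value of 183.1 on both arrays, and how such ties arose is not known.

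Enzymes that build or modify the glycans galectins bind were all above the floor. All 13 were counted, and 0 passed 1.5-fold upward and 0 downward. Bright probe sets were in general slightly higher on the interferon array, and the medians given next are not matched for brightness. The enzymes had a median log2 ratio of 0.11, beside 0.03 over all counted genes. The highest was B4GALT1, which adds the galactose that galectins recognise, at 162.7 with interferon and 127.1 untreated, a log2 ratio of 0.36, with its 3 counted probe sets between -0.11 and 0.36. MGAT4B, which branches N-glycans, and GCNT1, which branches O-glycans, followed at 0.15 each. The lowest were the core fucosyltransferase FUT8 at -0.23 and the sialyltransferase ST3GAL1 at -0.07. Their other counted probe sets had -0.36 and 0.01. MGAT5, whose branched N-glycans are favoured galectin-3 ligands, had 539.5 with interferon and 544.7 untreated, a log2 ratio of -0.01.

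Partners that galectins or LGALS3BP bind had intensities from 26.34 to 7447 with interferon and from 28.08 to 6430 untreated. Of 22, 20 were counted, with 0 past 1.5-fold in either direction on the probe sets used and a median log2 ratio of 0.11. The highest were the growth factor receptor EGFR (0.26 on the probe set used, but -0.99 on the lowest of 7 counted) and the lysosomal membrane protein LAMP1 (0.24). The lowest were the hyaluronan receptor CD44 and the tetraspanin CD82, at -0.18 each. The 4 counted CD44 probe sets ran from -0.18 to 0.19 and the 2 of CD82 from -0.18 to 0.06. Fibronectin (FN1), a matrix protein that LGALS3BP binds, had 7447 with interferon and 6430 untreated, a log2 ratio of 0.21. Its 5 counted probe sets ran from -0.07 to 0.24. Integrin beta-1 (ITGB1) had 4411 with interferon and 3800 untreated, or 0.22. The galectin-9 receptor gene HAVCR2, a gene of immune cells, had 60.19 on both arrays on the 1 of its 4 probe sets that was counted. How this exact tie arose is not known.

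In the response to damaged vesicles, in which galectin-3 and galectin-8 serve as sensors, all 12 genes were counted, with 0 past 1.5-fold and a median of 0.04. The autophagy receptor OPTN was highest, with 647.3 with interferon and 500.8 untreated, a log2 ratio of 0.37, and 0.20 on its other probe set. TAX1BP1, a related receptor, had 0.23. The galectin-8 partner CALCOCO2 had 0.18, and 0.25 on its other counted probe set. The lowest were the galectin-3 partner TRIM16 and the kinase ULK1, at -0.08 each. Of 16 genes whose proteins have scavenger receptor cysteine-rich domains, as LGALS3BP does, 11 were counted, with 0 past 1.5-fold in either direction and a median of -0.04. The extremes were -0.23 (DMBT1) and -0.15 (MARCO) at the low end and 0.19 (CFI) and 0.11 (CD5 and LOXL3) at the high end. CD5 had -0.10 on its other probe set.

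**Figure D3:**
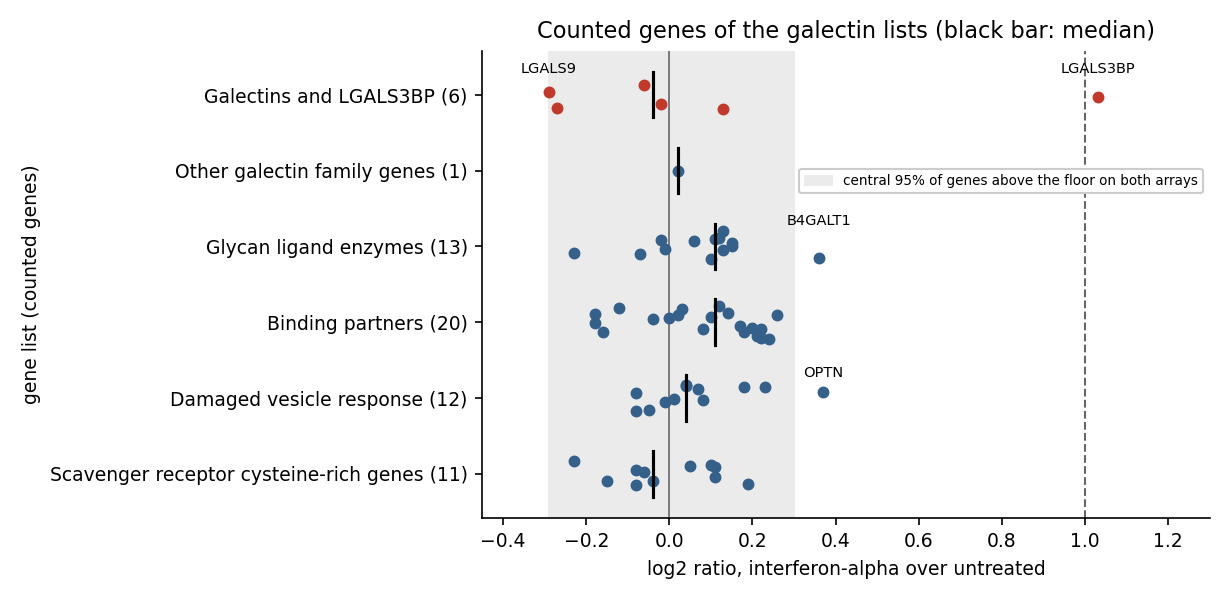
Log2 ratios, interferon-alpha over untreated with values raised to the floor, of the counted genes of each list (points, with the number in brackets), their medians (black bars) and the central 95% of genes that exceeded the floor on each array (grey). LGALS3BP at 1.03 is the only gene beyond the 2-fold line, and B4GALT1 at 0.36 and OPTN at 0.37 are the next highest.

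The genes with the values most like those of LGALS3BP over the 2 arrays were sought among genes above the floor on both, by the distance between log2 values. These were BST2 (a distance of 0.51), FTX (0.54), CHROMR (0.58), BTN3A1 (0.58) and LOC100190986 (0.60). BST2 had 92.38 with interferon and 53.73 untreated. Since LGALS3BP was itself below the floor untreated, none of these lay close to it.

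The labels were checked on named genes. ISG15, IFIT1, MX1 and IRF9, induced by type I interferon, were between 818.2 and 8332 with interferon and between 25.28 and 351.2 untreated. All 8 hepatocyte markers with a probe set of their own were bright, from 951.5 to 14590 with interferon and from 886.8 to 12210 untreated. Galectin-3, galectin-9 and LGALS3BP are also abundant in macrophages and other leukocytes. The 6 leukocyte markers had intensities from 16.96 to 2271 (sum 2555) with interferon and from 19.23 to 2064 (sum 2368) untreated, most of it from LYZ. PTPRC and CD3E did not reach the floor on either array, and the other 4 exceeded it on both. The log2 ratios of these 4 were 0.25 for ITGAM, 0.14 for LYZ, -0.24 for CD79A and -0.25 for CD14. The part of such cells in the LGALS3BP difference was not tested.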

How the data were processed

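Each array gave 1 linear intensity per probe set, used as deposited by the authors. GCOS, the scanner software of Affymetrix, is the tool named in the submitters' processing notes. How background was corrected, probes were summarised and arrays were scaled is not given in the sources used. The medians were 48.04 with interferon and 48.84 untreated. Of 54675 probe sets, 62 controls were left out. Of the others, 41091 had 1 gene in the platform annotation, 1801 several and 11721 none named there. Symbols of 41037 were matched to RefSeq by gene ID, whether or not they changed. Values under 48.46 were set to 48.46 before the log2. For each gene, the probe set brightest on average over both arrays was used, which favours one that is higher with interferon. Log2 ratios are interferon over untreated. Genes named are the members, genes of the lists past 1.5-fold, the 2 at each end of a list, list genes with a stated link to a member, which were picked after their values were seen, and the 5 nearest to LGALS3BP. The members and lists were chosen with earlier results of these data known. The brightness windows, the promoter search and the search for near genes without the floor were added after the values were seen. Promoters are RefSeq's (GRCh38.p14). The procedure was tested on simulated data with differences planted only in genes well above the floor. That test did not cover genes below the floor untreated, such as LGALS3BP. Python 3.11.15 and pandas 2.3.3 were used. The number of arrays limits the precision.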

Additional observations from a re-analysis of the deposited data

How the results depend on the processing

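No paired analysis was possible because each condition has 1 array and no test was made. Under 11 alternatives for the floor, the scaling and the choice of probe set, LGALS3BP was at least 2-fold higher in all but the centring on the hybridisation controls, which gave 0 members at least 2-fold higher and 1 (LGALS9, at -0.72) at least 1.5-fold lower. Its log2 ratio ran from 0.60 there to 1.37 with the floor at the 40th or 25th percentile, where it is measured on both arrays and no longer a bound. LGALS3BP, LGALS1 and LGALS2 have 1 probe set each, so the alternatives for the choice of probe set could not change their ratios. Leaving out probe sets ending in _x_at or _s_at removed every counted probe set of LGALS3, LGALS8 and LGALS9. LGALS1 (-0.30 to -0.23) kept its sign in all 11, LGALS2 (-0.49 to -0.03) too, and LGALS9 (-0.72 to -0.24) in the 10 that gave a value. The narrow range of LGALS1 owes something to the floor. Its interferon value was already below the floor, so centring on the controls could not lower the bound, which stayed at -0.27. LGALS3 ran from -0.30 to 0.16 and LGALS8 from -0.45 to 0.00. Over all genes, centring on the controls moved the median log2 ratio to -0.37, against 0.03 as deposited, with 57 genes at least 1.5-fold higher and 995 lower, against 100 and 11. The 11 genes at least 1.5-fold lower, of 13269 counted, became 28 of 14962 and 37 of 17114 with the floor at the 40th and 25th percentile. With pseudocounts of 1 and 16 they became 33 and 5, each of 19775. At least 2-fold lower was 1 gene with either lower floor and with a pseudocount of 1, and 5 after centring on the controls, against 0. At least 2-fold higher were 38 of 10176 counted genes without _x_at and _s_at probe sets, against 57 of 13269.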

Other observations

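With the floor set aside, a choice made after the values were seen, the genes nearest to LGALS3BP in log2 values over the 2 arrays were IFIT2 (103.1 with interferon and 38.38 untreated, a distance of 0.06), MAB21L2 (89.0 and 41.55), TNFSF10 (107.3 and 42.89), GPR158 (96.21 and 32.25) and TRIM21 (77.37 and 37.27). IFIT2, TNFSF10 and TRIM21 are known interferon-responsive genes. MAB21L2, a developmental gene, and GPR158, an orphan receptor gene, are not usually listed among them, and their measured log2 ratios were 1.10 and 1.58. The distance uses the same 2 values as the ratio, so genes this near to LGALS3BP were bound to be higher with interferon.

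The probe set shared by LGALS7 and LGALS7B, epidermal galectins, had 27.37 with interferon and 31.29 untreated, below the floor on both arrays. LGALS8-AS1, the antisense transcript at the galectin-8 gene, had 80.12 with interferon and 86.99 untreated, a log2 ratio of -0.12.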
